A study of Mus musculus with 30 samples.

Results

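Fibroblasts that carry an empty retrovirus and have neither MyoD nor its relative Myf5 were compared between 12 h and 6 h in muscle differentiation medium. The comparison asks how gene expression moved with time in this medium when no myogenic factor was supplied. Its members were the 3 arrays titled for empty retrovirus cells at 6 h and the 3 titled for the same cells at 12 h, which are 6 of the 30 arrays of the series. All cells were mouse embryonic fibroblasts from MyoD-/-/Myf5-/- animals, so the deletion of both genes was shared by every group. The other groups compared here included empty retrovirus cells at 24 h. Cells that carried ER-MyoD wt or ER-MyoD RRR were compared at 6 h and 12 h. Normalization and the estimate of spread also used the remaining groups, ER-MyoD wt at 0 h and 24 h and ER-MyoD RRR at 24 h. ER-MyoD wt is MyoD fused to the hormone-binding domain of the estrogen receptor, and in ER-MyoD RRR lysines 99, 102 and 104 are mutated so that they cannot be acetylated. Each group had 3 arrays. The labels of the empty retrovirus arrays name the medium, and beta-estradiol is named in the study's design for the cells with a fusion protein, so whether the empty retrovirus cells received it is not known here. No array of empty retrovirus cells at 0 h was analysed here, so every difference below is between 2 times in the medium and not a change from growth medium. The labels do not say that replicates were separate cultures. The p-values rest on the spread within groups pooled over all 30 arrays, not on the 6 compared arrays alone, and that spread may be technical.

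Media that drive muscle differentiation usually hold little serum. Fibroblasts that lose serum growth factors finish the cell cycle they have begun and then stop dividing. Genes for DNA replication are transcribed when a cell enters the cycle and genes for mitosis at its end, so the levels of both follow the share of cells in those stages. Less serum also means less lipoprotein cholesterol, and cells answer a fall in membrane cholesterol by making more sterol enzymes through the transcription factor SREBP.

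Most markers of the labelled cell type were high. Among 14 fibroblast markers the median signal was 1927, 11 exceeded 200, and vimentin (Vim) was highest at 10322. The median marker signal of adipocytes, of chondrocytes and osteoblasts, of macrophages and blood cells, of endothelium, of epithelium and of neurons and glia lay between 27.3 and 60.3. The adipokine gene Adipoq (14.1), the leukocyte gene Ptprc (15.6), the endothelial gene Tie1 (3.45) and the epithelial gene Cdh1 (20.9) were near the floor of the arrays. Other members of these lists were brighter. Lpl (853) and Sprr1a (595) were the highest members of the adipocyte and epithelial lists, followed by Agpat2 (229) and Epcam (244). The highest members of the remaining lists were Sox9 (207), Csf1r (123), Egfl7 (138) and Mbp (137). Among the fibroblast markers, Fap (58.4) and Lum (63.9) were close to the highest of those medians. The summed signal of the fibroblast list was 35670 to 37602 at 6 h and 37373 to 43649 at 12 h, that of the epithelial list 994 to 1313 and 1305 to 1520, and the ranges of the other 5 lists overlapped as these did. The part of these markers in the results was not tested. Myod1 had a mean signal of 167 ± 32.0 (SD, n = 3) at 6 h and 182 ± 11.8 at 12 h, a log2 difference of 0.14 ± 0.35 (adjusted p = 0.975). Myf5 had 442 ± 54.6 and 494 ± 192 (adjusted p = 0.982). Where these probe sets lie relative to the deleted parts is not known, so neither checks the deletion. Pearson's r between arrays, over all probe sets, was 0.956 to 0.963 within 6 h and 0.932 to 0.957 within 12 h. Replicate 1 at 12 h stood apart, with the highest median signal (64.1, against 42.6 to 49.95 in the other 5 arrays). Replicate 2 at 12 h had the largest 3' over 5' ratios of the 6 arrays, with Gapdh at 1.40 and Actb at 2.07. Intact RNA gives low values of this ratio. All 3 arrays at 12 h correlated best with an array at 6 h and not with one of their own group.

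Across all genes, few passed the test between 12 h and 6 h, and most of those were higher at 12 h. With 3 arrays per group, a gene that did not pass is not shown to be unchanged. Of 18193 genes, 31 rose (0.17%) and 6 fell (0.033%), together 0.203%. Of the gene lists described here, those of mitosis (6), collagens (3), cell cycle exit (3) and sterol synthesis (2) held more than 1 gene that rose, and that of the amino acid response held 3 genes that fell. The test was limma's moderated test over all 30 arrays with Benjamini-Hochberg adjustment, with 0.05 as the threshold for the adjusted p. Values were compared as log2(signal + 16) after quantile normalization, a scale that understates changes of genes with low signal, and the ± after a log2 difference gives the model's standard error, n = 3 arrays per group. Log2 differences of the genes that rose lay between 0.46 and 1.46, with 4 of them at least 2-fold. Those of the genes that fell lay between -1.23 and -0.60, with 1 at least 2-fold. In all 37 the 3 arrays at 12 h lay entirely on one side of the 3 at 6 h, which was so for 2356 genes (13%) in all, 1373 higher (7.55%) and 983 lower (5.4%). The median difference of all genes was 0.03, and 54.8% were above 0. From 12 h to 24 h the same cells changed far more, with 1065 genes higher (5.85%) and 1206 lower (6.63%), a comparison that uses the same 12 h arrays.

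**Figure D1:**
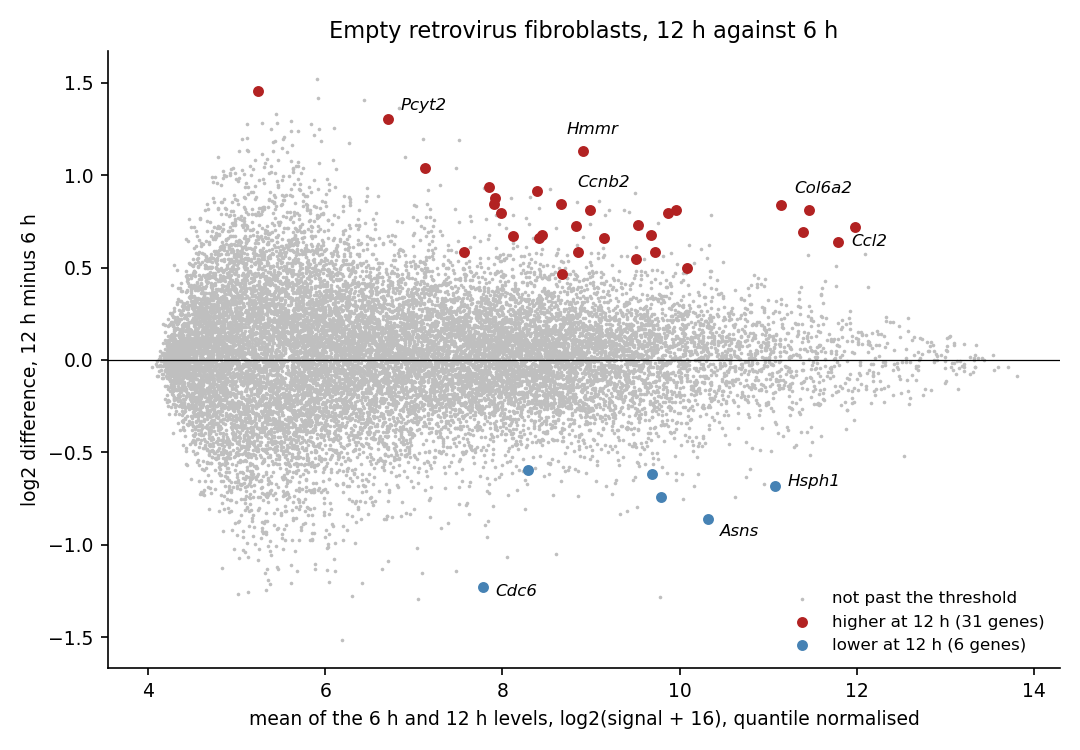
Each point is 1 of 18193 genes in empty retrovirus fibroblasts, with its mean level over 6 h and 12 h on the horizontal axis, log2(signal + 16), and its log2 difference, 12 h minus 6 h, on the vertical axis. The 31 genes that rose (red) and the 6 that fell (blue) lie mostly above a level of 7, while the widest scatter without a call lies among dim genes.

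The calls depended on the scaling and on which arrays were fitted. With median centring in place of quantile normalization 0 genes passed (1039 at an unadjusted p under 0.05), with adjusted p of the 37 between 0.145 and 0.686. With only the 6 arrays fitted 0 passed as well (1270 unadjusted, against 1472, or 8.09%, in the fit reported here), and all 37 kept their direction in both. Without 6 h replicate 1 there were 11, without 6 h replicate 2 14, without 12 h replicate 1 22, and without 12 h replicate 2 17. Ccnb2, Col6a2, Bnip3, Col3a1 and Iqgap3 passed whichever of the 6 arrays was left out, and each of the other genes lost its call in at least 1 of these fits. Cdca3, Ccdc80, Fah, Gid8 and Psph passed in none of them.

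Mitosis was the list with the most genes that rose. Of 45 measured genes of mitosis and cytokinesis, 6 rose and 0 fell. All 45 had a higher mean at 12 h, 36 of them at an unadjusted p under 0.05 (against 4.86% of all genes in that direction), and the median difference was 0.52 against 0.03 for all genes. Ccnb2 encodes cyclin B2, which drives entry into mitosis with Cdk1. Its signal was 289, 266 and 342 in replicates 1, 2 and 3 at 6 h and 534, 499 and 516 at 12 h. The groups did not overlap, and the difference of 0.84 ± 0.11 had the smallest p of all genes (adjusted p = 0.000545). Hmmr, a spindle-assembly protein also known as a hyaluronan receptor, was at 295, 279 and 395 at 6 h and at 759, 683 and 587 at 12 h, a difference of 1.13 ± 0.23 (adjusted p = 0.0274). Every 12 h array lay above every 6 h array. Its 4 other, dimmer probe sets differed by 0.50, 0.40, 0.30 and -0.096, and the mean of all 5 by 0.45, which did not pass. Securin, which guards the bond of sister chromatids until anaphase, is encoded by Pttg1, at 1986, 1661 and 2428 and then 3149.9, 3799 and 3481 (0.81 ± 0.15, adjusted p = 0.0106). The kinetochore gene Nuf2 (0.73 ± 0.15), the spindle gene Nusap1 (0.72 ± 0.14) and Cdca3, whose product helps to degrade an inhibitor of mitotic entry (0.81 ± 0.17), also rose. In bulk samples a larger share of cells in mitosis and more mitotic RNA per cell cannot be told apart.

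Other genes of chromosome segregation had differences as large with wider errors. The kinetochore gene Ndc80 differed by 1.04 ± 0.29 (adjusted p = 0.158), the phosphatase gene Cdc25c by 0.92 ± 0.22 (0.0884), the kinesin gene Kif20a by 0.73 ± 0.17 (0.0779) and the checkpoint gene Bub1b by 0.73 ± 0.17 (0.0863). None of these passed. The lowest members were Racgap1 (0.089 ± 0.23), a regulator of cytokinesis, Bora (0.14) and Nek2 (0.16), followed by Ccna2 (0.22), cyclin A2, and the kinase gene Cdk1 (0.23). Of genes outside the list, Iqgap3, a scaffold protein of dividing cells, rose from 227, 230.0 and 258 to 426, 386 and 514 (0.91 ± 0.14, adjusted p = 0.00193). The helicase gene Pif1 rose by 1.04 ± 0.21 (adjusted p = 0.0257), from 88.5, 75.0 and 101 to 236, 207 and 136. H2az2, a histone H2A.Z variant gene, rose by 0.58 ± 0.11.

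By array, the median mitosis gene lay 0.71, 0.60 and 0.49 above the 6 h mean in 12 h replicates 1, 2 and 3, and between -0.008 and 0.037 of it in the 6 h arrays. The 6 h arrays form the mean they are set against, which draws their values to 0, so their range is no independent measure of spread. The array that stands apart, replicate 1, was highest, and replicates 2 and 3 also lay above every 6 h array. Without it 1 mitosis gene passed, 30 of 45 had an unadjusted p under 0.05, and the median was 0.50. Leaving out 12 h replicate 2 or 6 h replicate 2 also left 1 mitosis gene past the threshold, and leaving out 6 h replicate 1 left 2, with medians of 0.51, 0.55 and 0.54.

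By 24 h most mitosis genes had fallen again. Hmmr was then at 271, 363 and 273, Pttg1 at 1603, 2171 and 2154 and Iqgap3 at 185, 139 and 205, close to or below their 6 h signals, while Ccnb2 was still at 392, 489 and 502. In the 24 h minus 12 h comparison 39 of 45 mitosis genes fell (6.63% of all genes did) and 0 rose, with a median of -1.11. Hmmr differed by -1.23 there (adjusted p = 0.000311), Nuf2 by -1.27 (6.37e-07) and Ccnb2 by -0.21 (0.26, not passing). That comparison and the one from 6 h to 12 h share the 12 h arrays, so a high 12 h value raises the one and lowers the other. Set against 6 h, the median mitosis gene was at -0.54 by 24 h.

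Promoters of mitosis genes are shown because the members moved together. Many such promoters carry CCAAT boxes, the site of the factor NF-Y, and a CHR, the element through which MuvB complexes silence mitotic genes in resting cells. The windows run from 150 bases before the RefSeq start to 30 bases from it, in build GRCm38.p6, each read 5′ to 3′ on the strand of its gene. Capitals mark CCAAT, or its reverse complement ATTGG, and the CHR letters TTTGAA or their reverse complement.
Ccnb2 (chr9:70421525-70421704, minus strand): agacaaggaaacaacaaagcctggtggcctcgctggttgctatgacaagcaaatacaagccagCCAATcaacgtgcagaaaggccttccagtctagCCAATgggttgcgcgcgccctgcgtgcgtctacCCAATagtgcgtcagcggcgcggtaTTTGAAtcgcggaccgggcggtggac
Hmmr (chr11:40733408-40733587, minus strand): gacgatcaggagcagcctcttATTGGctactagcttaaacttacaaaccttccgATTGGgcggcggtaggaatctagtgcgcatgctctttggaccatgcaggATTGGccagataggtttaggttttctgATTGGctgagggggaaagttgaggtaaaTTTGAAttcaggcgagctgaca
Cdca3 (chr6:124830026-124830205, plus strand): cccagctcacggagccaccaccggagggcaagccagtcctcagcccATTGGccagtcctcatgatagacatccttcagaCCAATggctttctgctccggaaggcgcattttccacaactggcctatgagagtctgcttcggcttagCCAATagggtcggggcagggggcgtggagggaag
The Ccnb2 window holds CCAAT 87, 54 and 21 bases before the start and TTTGAA 4 bases after it. In Hmmr 4 boxes lie in reverse orientation, 129, 96, 47 and 20 bases before the start, with TTTGAA 8 bases after it. Cdca3 holds 3 boxes and no TTTGAA, and the windows of Pttg1, Nuf2 and Nusap1 hold neither motif. Searched on both strands, CCAAT was in 27 of 37 windows of mitosis genes (73%) and in 29.1% of 14452 windows of all genes tested. TTTGAA was in 21 of those 37 (56.8%) and in 7.17% of all. A match describes letters and not a bound site.

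Of 43 measured DNA replication genes, 0 rose and 1 fell, 30 had a lower mean at 12 h, and the median was -0.11. At an unadjusted p under 0.05, 12 were lower and 1 higher (against 3.23% and 4.86% of all genes). The gene that fell was Cdc6, which loads the MCM helicase onto origins before S phase. Its signal was 304, 262 and 452 at 6 h and 132, 195 and 99.9 at 12 h, a difference of -1.23 ± 0.26 (adjusted p = 0.0381). The 6 h arrays were all higher, but their spread was wide, and Cdc6 passed in 1 of the 6 fits that each left out 1 array, the one without 12 h replicate 2. By 24 h it was at 48.4, 46.0 and 57.2, a further -1.19 (adjusted p = 0.00186). Its loading partner Cdt1 (-0.59 ± 0.13, adjusted p = 0.068), the uracil glycosylase gene Ung (-0.83 ± 0.22, 0.135) and the polymerase gene Pole2 (-0.45 ± 0.15, 0.276) did not pass. The clamp gene Pcna differed by -0.03 ± 0.10 and the helicase gene Mcm4 by 0.0068 ± 0.14. In the 24 h minus 12 h comparison 40 of 43 fell (6.63% of all genes did), with a median of -1.42.

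Genes tied to cell cycle arrest and to FoxO factors, which are active when growth factor signalling is low, held 3 that rose of 36, and 0 fell. Ccng2, cyclin G2, a FoxO target that slows the cycle, went from 182, 118 and 188 to 343, 319 and 258 (0.94 ± 0.17, adjusted p = 0.0106) and on to 482, 722 and 586 at 24 h. Sesn3, a sestrin that restrains the growth kinase mTORC1, rose by 0.80 ± 0.14 (adjusted p = 0.00972), from 198, 157 and 206 to 301, 339.8 and 323. A second probe set of Sesn3 differed by -0.14 at an unadjusted p of 0.564. Bnip3, a mitophagy receptor that FoxO and hypoxia factors both induce, was among the tightest measurements, at 705, 677 and 644 and then 1126, 1143 and 1162 (0.80 ± 0.11, adjusted p = 0.000545). The groups lay far apart. The list's median was 0.15. The cell cycle inhibitor genes Cdkn2c (0.56 ± 0.13, adjusted p = 0.0884), Cdkn1b (0.45 ± 0.31, 0.789) and Cdkn1a (0.019 ± 0.17, 0.995) did not pass. Bnip3 also stands in the list of HIF targets and glycolysis, where it was the 1 of 31 to pass (median 0.17).

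**Figure D2:**
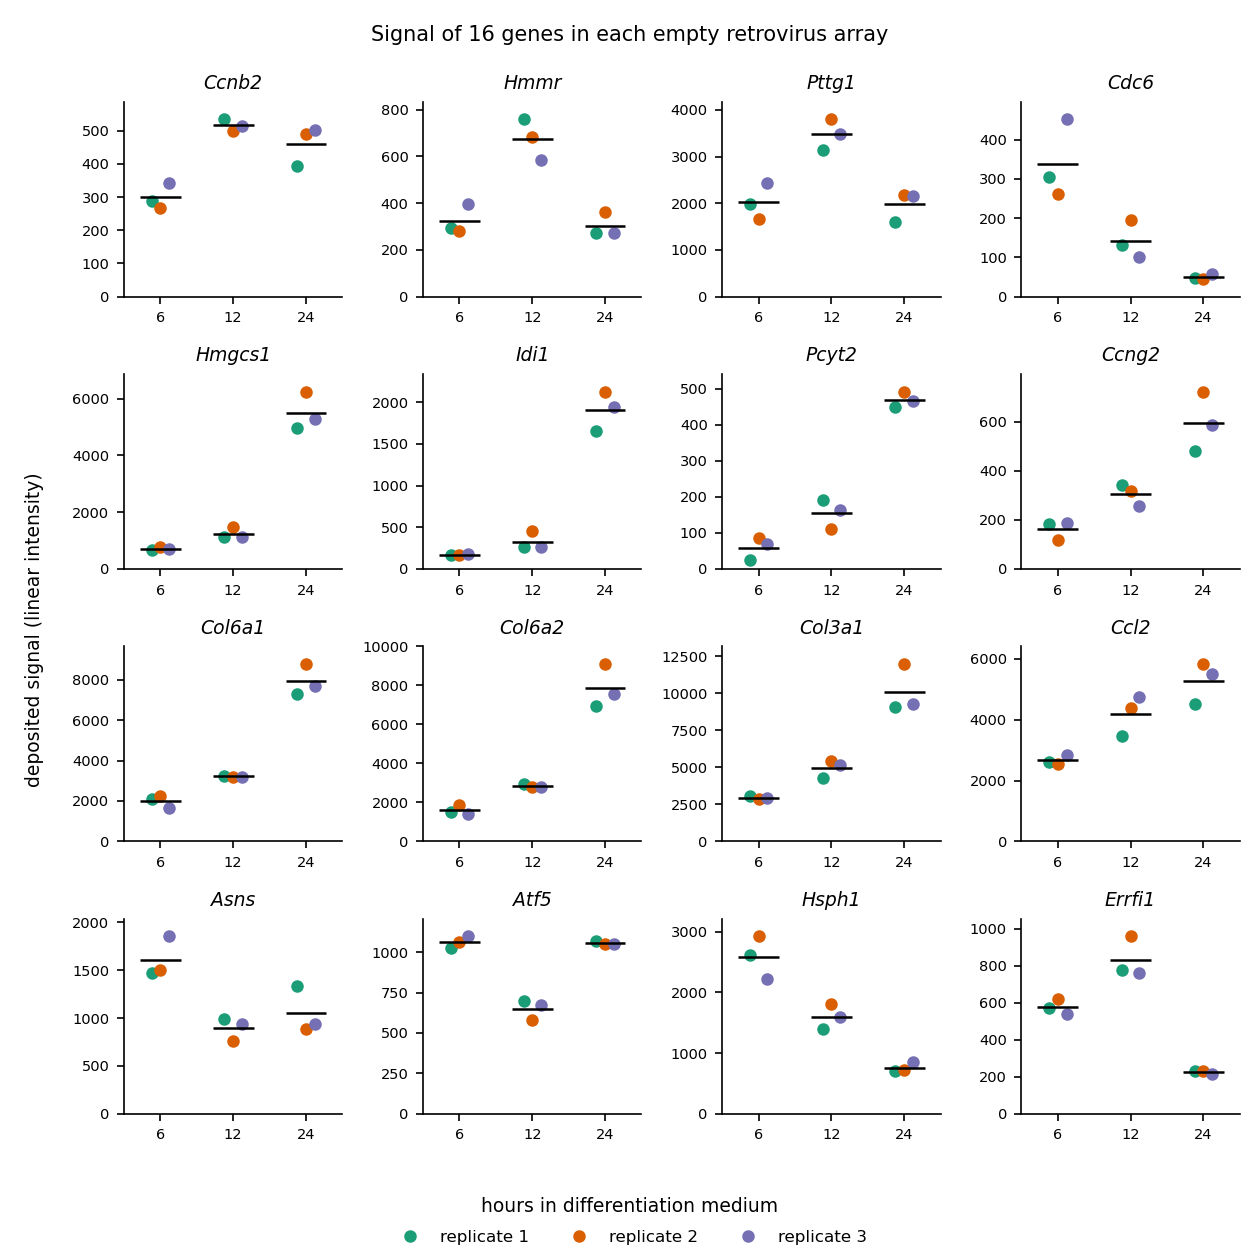
Deposited signal (linear intensity, vertical axes from 0) of 16 genes in each empty retrovirus array at 6, 12 and 24 h, with colours for replicate numbers and a line at the mean of 3 arrays. Hmmr and Pttg1 are highest at 12 h, the sterol and collagen genes rise at 12 h and much further by 24 h, Cdc6 and Hsph1 fall at each step, and Atf5 dips at 12 h and returns.

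Sterol synthesis had the next highest median. Of 21 measured genes of sterol synthesis and uptake, 2 rose and 0 fell, 20 had a higher mean at 12 h, and the median was 0.45. Of the 20, 13 were higher at an unadjusted p under 0.05 (against 4.86% of all genes in that direction). Hmgcs1 makes HMG-CoA, the substrate of the rate-limiting reductase. Its signal was 672, 771 and 709 at 6 h and 1113, 1482 and 1121 at 12 h, all higher than at 6 h and highest in replicate 2 (0.81 ± 0.16, adjusted p = 0.02). Idi1, which isomerises the isoprene unit, went from 168, 170.0 and 177 to 268, 451 and 265 (0.88 ± 0.16, adjusted p = 0.0106). Here too replicate 2 was far above replicates 1 and 3, and without it the difference was 0.63 and 0 sterol genes passed. There were also 0 without 6 h replicate 1 or 2, and 1 without 12 h replicate 1. Neither gene passed with the mean of a gene's probe sets. Mvd (0.95 ± 0.23, adjusted p = 0.0992), Fdps (0.93 ± 0.25, 0.152) and Cyp51 (0.52 ± 0.13, 0.102), further enzymes of the path, did not pass. Lss, which closes the sterol ring, differed by 0.047 ± 0.13, and Pmvk was the one member with a lower mean (-0.11).

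The later step was larger. At 24 h the signals were 4981, 6246 and 5299 for Hmgcs1 and 1654, 2127 and 1946 for Idi1. In the 24 h minus 12 h comparison, which shares the 12 h arrays, 20 of 21 members rose (5.85% of all genes did). The list's median there was 1.97. The 25 measured genes of fatty acid synthesis, which related SREBP factors control, had a median of 0.016 from 6 h to 12 h, of either sign depending on the setting. By limma 0 passed, and 4 were higher and 2 lower at an unadjusted p under 0.05 (against 4.86% and 3.23% of all genes). From 12 h to 24 h 16 of the 25 rose (5.85% of all genes did). Pcyt2, the rate-limiting enzyme of phosphatidylethanolamine synthesis, rose at both steps. It was at 24.9, 85.5 and 68.0 at 6 h, 193, 112 and 164 at 12 h and 449.6, 492 and 467 at 24 h. The first step was 1.31 ± 0.23 (adjusted p = 0.0074) and the second 1.55 (1.4e-05). The groups did not overlap, although the 6 h arrays spread over 3-fold. Acat1, a mitochondrial thiolase of ketone body and isoleucine metabolism, rose by 0.50 ± 0.10 and Fah, the last enzyme of tyrosine breakdown, by 0.58 ± 0.12.

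The Hmgcs1 promoter is shown because sterol control of this gene is well known. Its window, of the same length and build, has in capitals a sterol element searched as TCACNCCAC, and CCAAT or its reverse complement.
Hmgcs1 (chr13:119690201-119690380, plus strand): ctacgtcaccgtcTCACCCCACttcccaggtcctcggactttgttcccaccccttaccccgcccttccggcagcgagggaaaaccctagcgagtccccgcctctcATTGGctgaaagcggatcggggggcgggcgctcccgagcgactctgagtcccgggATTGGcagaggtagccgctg
The sterol element lies 137 bases before the start, and CCAAT lies in reverse orientation 45 bases before the start and 10 bases after it. These letters TCACNCCAC were in 1 of 17 windows of sterol genes (5.88%) and in 0.664% of all 14452. CCAAT was in 15 of the 17 (88.2%), among them Idi1 with 2.

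Collagens also held genes that rose. Of 24 measured collagen chain genes, 3 rose and 0 fell, 16 had a higher mean at 12 h, and the median was 0.17. Both short chains of collagen VI, the microfibril collagen around cells, rose. Col6a2 was at 1505, 1881 and 1405 at 6 h and 2926, 2778 and 2770.2 at 12 h (0.84 ± 0.12, adjusted p = 0.000545). Col6a1 was at 2075, 2246 and 1661 and then 3243, 3202 and 3206 (0.69 ± 0.12, adjusted p = 0.0074). The deposited 12 h signals agreed closely in both genes, and the groups were apart. After quantile normalization 12 h replicate 1 was higher than replicates 2 and 3, at 11.79 against 11.45 and 11.47 for Col6a2. For Col6a1 it was at 11.94 against 11.65 and 11.64. Over the fits that left out 1 array, the Col6a1 difference lay between 0.55 and 0.78. The third chain, Col6a3, was the first gene outside the threshold (0.58 ± 0.13, adjusted p = 0.0562). Col3a1, the fibrillar collagen III of soft tissue, went from 3088, 2851 and 2903 to 4291, 5444 and 5119 (0.72 ± 0.11, adjusted p = 0.00368). The chains of collagen I did not pass. Col1a1 differed by 0.018 ± 0.21 (adjusted p = 0.996) and Col1a2 by 0.11 ± 0.12 (0.907). By 24 h Col6a1 and Col6a2 had means of 7931 ± 759.9 and 7875 ± 1101. Against 12 h, 13 of 24 collagen genes rose (5.85% of all genes did).

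Other secreted and stromal genes also rose. Tnc, tenascin C of the provisional matrix, rose from 264, 297 and 239 to 329, 480.3 and 450.5 (0.66 ± 0.13, adjusted p = 0.0257), and it was the 1 of 37 matrix glycoprotein and crosslinking genes to pass (median 0.09). Ccdc80, a matrix protein, rose by 0.67 ± 0.15 at the edge of the threshold (adjusted p = 0.0485) and passed in none of the fits that left out 1 array. Ccn4, a Wnt-induced matricellular protein, rose by 0.58 ± 0.12. Zeb1, a mesenchymal transcription repressor, rose from 424, 439 and 446 to 646, 663 and 717 (0.66 ± 0.11, adjusted p = 0.0074). Nfatc4, a calcineurin-regulated transcription factor, rose by 0.68 ± 0.12. Its 3 other probe sets and 2 of 3 others of Zeb1 had differences between -0.20 and 0.05. Errfi1, Ccdc80, Cdca3, D17H6S56E-5, Gid8, H2az2, Iqgap3, Nfatc4, Nusap1, Sesn3, Tspyl4 and Zeb1 had other probe sets, none of them at an unadjusted p under 0.05. Over all 37 genes there were 43 other probe sets, 33 in the same direction (18 of them at an unadjusted p under 0.05) and 10 in the opposite one (0 at that level).

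Ccl2, the chemokine that draws monocytes, was the 1 of 36 chemokine and NF-kB response genes to pass. It was at 2621, 2559 and 2843 at 6 h and 3471, 4370.3 and 4745 at 12 h, with no overlap (0.64 ± 0.11, adjusted p = 0.0074). The list had a median of 0.15, with 11 members higher and 1 lower at an unadjusted p under 0.05 (against 4.86% and 3.23% of all genes). Il33 (1.25 ± 0.32, adjusted p = 0.124), Steap4 (1.24 ± 0.28, 0.068), the chemokine gene Cxcl12 (0.51 ± 0.13, 0.122) and the NF-kB response gene Nfkbiz (0.66 ± 0.17, 0.12) did not pass. Errfi1, a feedback inhibitor of the EGF receptor, rose from 571, 622 and 540.0 to 779.7, 959 and 761 (0.55 ± 0.12, adjusted p = 0.0405) and stood at 228, 229 and 214 at 24 h, below its 6 h signal. Its second probe set differed by -0.057 from 6 h to 12 h (unadjusted p = 0.902), and the mean of both by 0.24, which did not pass. The gene 2210011K15Rik was at the floor of the arrays at 6 h, at 3.67, 5.65 and 13.9 and then 53.9, 35.9 and 67.5 (1.46 ± 0.28, adjusted p = 0.0149). The size of its rise rests on the pseudocount, with 2.71 at a pseudocount of 1 and 0.65 at 64, where it did not pass. Tspyl4 (0.84 ± 0.15), D17H6S56E-5 (0.67 ± 0.14) and Gid8 (0.46 ± 0.10) complete the 31 genes that rose.

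**Figure D3:**
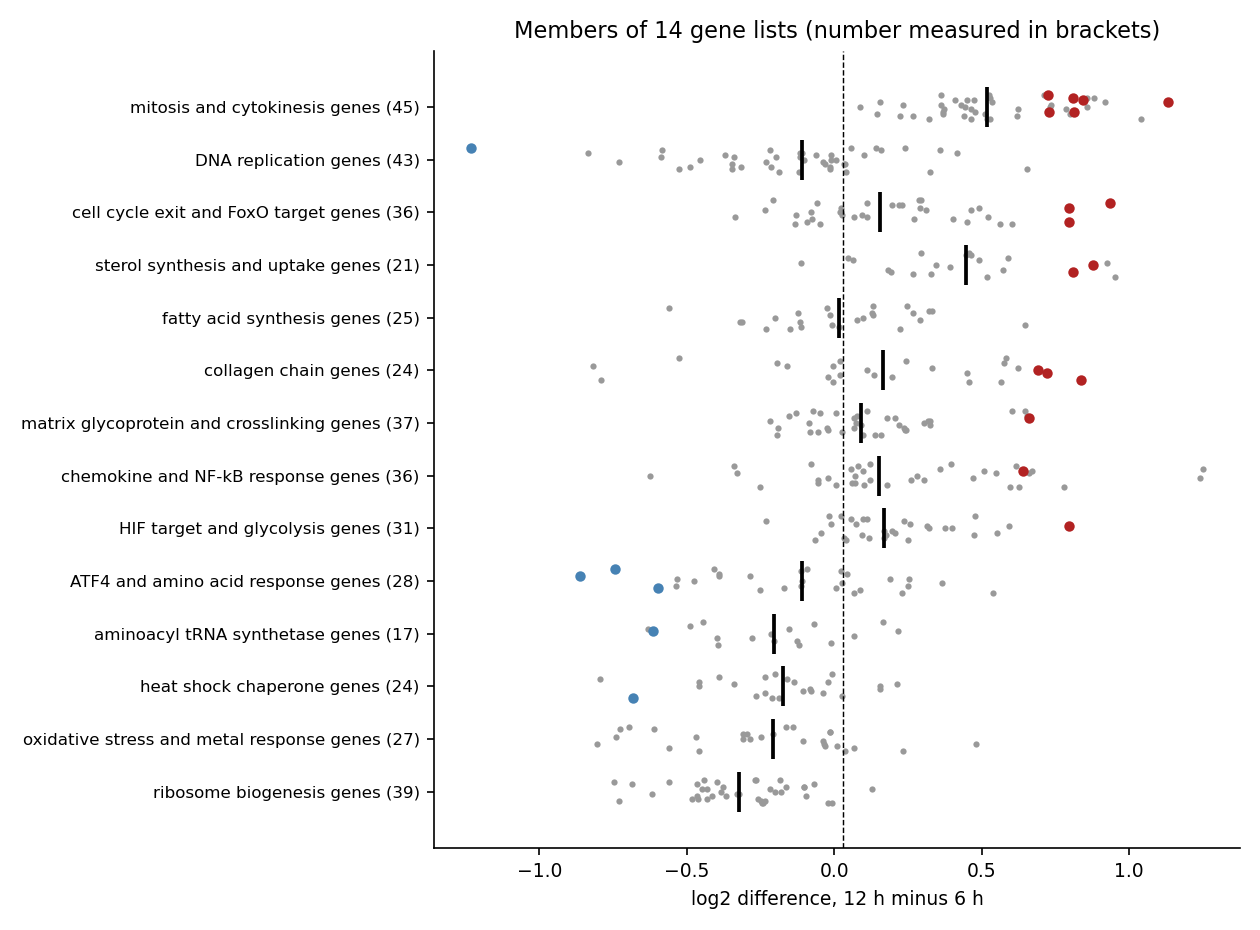
Log2 difference, 12 h minus 6 h, of each measured member of 14 gene lists, with the number measured in brackets, a bar at each list's median and a dashed line at the median of all genes (0.03). Red and blue points are the members that rose or fell. The mitosis and sterol medians, 0.52 and 0.45, lie farthest to the right and the ribosome biogenesis median, -0.32, farthest to the left.

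Of the 6 genes that fell, 3 belong to the ATF4 and amino acid response. ATF4 is a transcription factor that is translated when amino acids run short or proteins misfold, and it raises amino acid synthesis, transport and tRNA charging. Of 28 measured genes 3 fell, 0 rose and the median was -0.11. By array the median member lay at -0.31, -0.13 and -0.0062 in 12 h replicates 1, 2 and 3, relative to the 6 h mean. The 6 h arrays lay between -0.044 and 0.044, so 12 h replicate 3 was within their range. Asns, asparagine synthetase, had signals of 1475, 1503 and 1854 at 6 h and 992, 756 and 936 at 12 h (-0.86 ± 0.18, adjusted p = 0.0378). Atf5, a relative of ATF4, went from 1027, 1060.3 and 1097 to 700.3, 579 and 671 (-0.74 ± 0.15, adjusted p = 0.0319). Psph, the last enzyme of serine synthesis, went from 377, 357 and 392 to 210.1, 269 and 266 (-0.60 ± 0.13, adjusted p = 0.0438). In all 3 genes every 12 h array lay under every 6 h array. None of them passed without 6 h replicate 1, 2 or 3 or without 12 h replicate 2 or 3, with Asns between -1.02 and -0.69 over the 6 fits.

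The rest of the pathway was mixed. Serine and glycine enzyme genes had lower means that did not pass: Psat1 (-0.53 ± 0.17, adjusted p = 0.266), Shmt2 (-0.47 ± 0.13, 0.151) and Phgdh (-0.41 ± 0.12, 0.221). Atf4 itself differed by -0.11 ± 0.15, and the stress genes Ddit3 (0.043 ± 0.20), Trib3 (0.19 ± 0.29) and Chac1 (-0.11 ± 0.20) by amounts within their errors. In the 24 h minus 12 h comparison 16 of 28 members rose (5.85% of all genes did) and 2 fell (6.63%). That comparison shares the 12 h arrays in which Asns, Atf5 and Psph were low. Atf5 was at 1071, 1050.2 and 1049 at 24 h, against a mean of 1062 ± 34.8 at 6 h. The other members that had fallen did not pass from 12 h to 24 h, Asns at 0.26 (adjusted p = 0.461) and Psph at 0.35 (0.0816). Asns, at 1332, 887 and 941 at 24 h, was still below 6 h (-0.61, adjusted p = 0.0206). Psph at 24 h differed from 6 h by -0.25, which did not pass (adjusted p = 0.239). Of 17 measured aminoacyl tRNA synthetase genes 1 fell and 0 rose, with a median of -0.20. Relative to the 6 h mean, the median member lay at -0.19, -0.18 and -0.235 in the 12 h arrays and between -0.17 and 0.14 in the 6 h arrays. The gene that fell was Wars, tryptophanyl-tRNA synthetase, at 997, 845 and 1029 and then 639.5, 623 and 636 (-0.61 ± 0.12, adjusted p = 0.0156). The deposited 12 h signals were nearly equal and all lower. After quantile normalization the 12 h values were 9.51, 9.28 and 9.34. Wars passed in 2 of the 6 fits that each left out 1 array. Nars (-0.49 ± 0.11, adjusted p = 0.0562) and Gars (-0.44 ± 0.11, 0.099) did not pass.

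The Asns promoter is shown because its response element is one of the best described of this pathway. Capitals mark the composite C/EBP-ATF element, searched as TGATGNAA on both strands.
Asns (chr6:7693180-7693359, minus strand): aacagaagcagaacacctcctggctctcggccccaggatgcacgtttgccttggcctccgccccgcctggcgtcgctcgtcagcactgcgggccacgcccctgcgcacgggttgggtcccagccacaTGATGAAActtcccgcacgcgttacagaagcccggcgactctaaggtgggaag
The element lies 23 bases before the start. It was in 5 of 24 windows of this list (20.8%) and in 1.68% of all 14452. The windows searched for Atf5 and Psph do not hold it, and Atf5 has another window that was not searched.

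Hsph1, a co-chaperone of Hsp70, passed in 4 of the 6 fits that each left out 1 array, more than any other gene that fell. Its signals were 2617, 2921 and 2217 at 6 h, 1404, 1801 and 1596 at 12 h and 697, 728 and 851 at 24 h, with no overlap from one time to the next. The first difference was -0.68 ± 0.12 (adjusted p = 0.0074) and the second -1.11 (8.09e-08). It was the 1 of 24 heat shock chaperone genes to pass, while 20 had a lower mean (median -0.17). Fkbp4 (-0.79 ± 0.26, adjusted p = 0.283), Dnajb1 (-0.46 ± 0.16, 0.369) and Dnaja1 (-0.39 ± 0.12, 0.221) did not pass.

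The lowest median of any list measured belonged to ribosome biogenesis, which growth factors drive through Myc and mTORC1. None of its 39 measured genes passed in either direction by limma. Of the 39, 38 had a lower mean at 12 h, 14 at an unadjusted p under 0.05 (against 3.23% of all genes in that direction), and the median was -0.32. By array the median member lay at -0.31, -0.22 and -0.32 in 12 h replicates 1, 2 and 3 relative to the 6 h mean, and between -0.046 and 0.050 in the 6 h arrays. All 3 arrays at 12 h were lower than that mean. The 6 h arrays form the mean they are set against, which draws their values to 0, so their range is no independent measure of spread. The assembly factor gene Rrs1 differed by -0.68 ± 0.16 (adjusted p = 0.0863), Nolc1 by -0.56 ± 0.15 (0.151) and Wdr43 by -0.43 ± 0.11 (0.127). From 12 h to 24 h 26 of the 39 fell (6.63% of all genes did), with a list median of -0.65. Oxidative stress and metal response genes had a median of -0.21 with 0 of 27 past the threshold. At an unadjusted p under 0.05, 7 were lower and 1 higher (against 3.23% and 4.86% of all genes). Hmox1, heme oxygenase 1, differed by -0.81 ± 0.25 (adjusted p = 0.253) and Mt2, metallothionein 2, by -0.74 ± 0.24 (0.278).

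The same step was then measured in cells that carried MyoD, which share no array with the empty retrovirus cells. More genes passed there, 476 (2.62%) in ER-MyoD wt and 993 (5.46%) in ER-MyoD RRR. Of the 31 genes that rose in empty retrovirus cells, 25 had the same sign in ER-MyoD wt and 20 in ER-MyoD RRR. Of all genes, 51.3% were above 0 in ER-MyoD wt and 46.4% in ER-MyoD RRR. In ER-MyoD wt 9 of the 31 rose (1.44% of all genes did) and 4 fell (1.18%). In ER-MyoD RRR 11 rose (3.02%) and 3 fell (2.44%). Of the 6 that fell, 4 had the same sign in ER-MyoD wt, where 1 fell (1.18% of all genes did). In ER-MyoD RRR 6 had the same sign and 5 fell (2.44%). Cdc6 fell in all 3 cell populations, by -1.23, -1.42 and -1.16 (adjusted p = 0.00166 in ER-MyoD wt and 0.00681 in ER-MyoD RRR). Pcyt2 (1.03 and 0.93), Ccng2 (0.74 and 1.09), Idi1 (1.04 and 1.63), Hmgcs1 (0.61 and 1.24), Zeb1 (0.57 and 0.84) and H2az2 (0.55 and 0.44) rose in both populations with MyoD as well. Asns fell in ER-MyoD RRR (-0.99, adjusted p = 0.00107) and was at -0.16 in ER-MyoD wt (0.799).

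Whether the step itself differed was tested as a difference of differences. The change was unlike that of ER-MyoD wt for 157 genes (0.863%), 94 with a higher and 63 with a lower change in empty retrovirus cells. Against ER-MyoD RRR it was unlike for 228 (1.25%), 105 higher and 123 lower, and under median centring for 53, 15 higher and 38 lower. Of these 228, 168 passed without ER-MyoD RRR 6 h replicate 2, the array with the largest 3' over 5' ratios of all 30. In 54 genes the tests against ER-MyoD wt and ER-MyoD RRR both passed, 33 higher and 21 lower in both. Of the 31 genes that rose, 4 differed from ER-MyoD wt and 12 from ER-MyoD RRR, and their choice by a large change in the same arrays favours such calls. Errfi1, by its brighter probe set, had changes of 0.55, -1.13 and -1.11 in empty retrovirus, ER-MyoD wt and ER-MyoD RRR cells. The differences of change were 1.68 ± 0.17 (adjusted p = 5e-07) and 1.66 ± 0.17 (2.62e-06). The matrix genes Ccdc80 and Tnc likewise rose in empty retrovirus cells and fell in both others, Ccdc80 by -0.71 and -0.88, and Tnc by -0.59 and -0.67. Ccl2 fell in ER-MyoD wt (-0.42, adjusted p = 0.0346), and its change differed from both (1.06 ± 0.16, adjusted p = 0.000402, and 0.68 ± 0.16, 0.0271). Wars was the 1 gene of the 6 that fell to differ from ER-MyoD wt (-0.86 ± 0.17, adjusted p = 0.00656), where it was at 0.24.

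Collagen genes differed from ER-MyoD RRR in both directions. Col6a1 and Col6a2 were at -0.11 and -0.15 in ER-MyoD RRR, and the differences of change were 0.80 ± 0.16 (adjusted p = 0.0122) and 0.99 ± 0.16 (0.00139). Col3a1 rose more in ER-MyoD RRR (1.43), with a difference of change of -0.71 ± 0.16 (0.0233). Against ER-MyoD wt these 3 differences did not pass (adjusted p = 0.207, 0.132 and 0.309).

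For the mitosis genes the medians were 0.52 in empty retrovirus cells, 0.011 in ER-MyoD wt and 0.18 in ER-MyoD RRR. In ER-MyoD wt 0 of 45 rose (1.44% of all genes did) and in ER-MyoD RRR 6 (3.02%). The tests of single genes found 0 of 45 that differed from ER-MyoD wt (0.863% of all genes did) and 1, Cdca8, from ER-MyoD RRR (1.25%). Hmmr, with 0.18 in ER-MyoD wt, had a difference of change of 0.95 ± 0.32 (adjusted p = 0.233). Ccnb2, at 0.31, had one of 0.53 ± 0.16 (0.125). The pair of genes outside the list, Iqgap3 (0.95 ± 0.20, adjusted p = 0.0117) and Pif1 (1.25 ± 0.30, 0.0321), did differ from ER-MyoD RRR. For sterol genes the medians were 0.45, 0.75 and 0.97. In each population with MyoD 14 of 21 rose (1.44% and 3.02% of all genes did). In 2 and 4 of the 21 the change was lower in empty retrovirus cells (0.346% and 0.676% of all genes). Ribosome biogenesis was low in all 3 (-0.32, -0.31 and -0.53). In ER-MyoD wt and ER-MyoD RRR 6 and 18 of 39 fell (1.18% and 2.44% of all genes did).

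**Figure D4:**
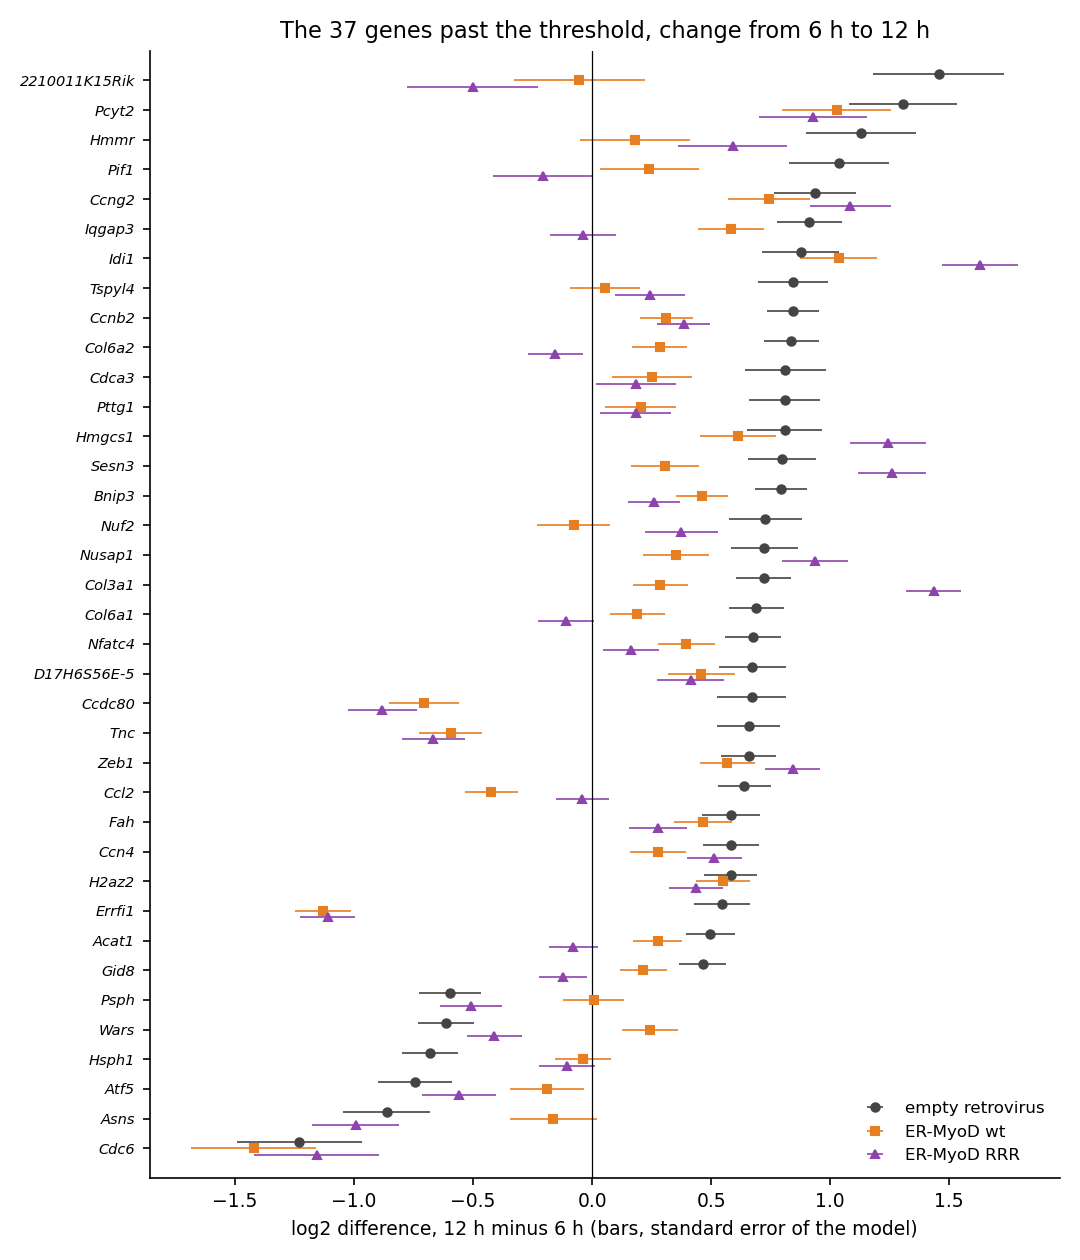
Log2 difference, 12 h minus 6 h, of the 37 genes that passed in empty retrovirus cells (circles), with the same difference in ER-MyoD wt (squares) and ER-MyoD RRR cells (triangles) and the model's standard error as bars. Errfi1, Tnc and Ccdc80 lie on opposite sides of 0 in empty retrovirus cells and in both others, while Pcyt2, Ccng2, Zeb1 and Cdc6 lie on the same side in all 3.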

How the data were processed

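The authors deposited intensities on a linear scale, 1 for each probe set of each array, from the Affymetrix Mouse Genome 430 2.0 chip. The software behind them is not given in the sources used here. Without the highest and lowest 2% of values, the mean of every array was 150, a sign that arrays had been scaled before deposit. Control probe sets (64 of 45101) were left out. Values entered as log2(signal + 16) after quantile normalization, and a gene was the probe set with 1 symbol and the highest mean (18193 genes). limma 3.58.1 in R 4.3.3 fitted 1 mean per group to all 30 arrays (20 residual degrees of freedom), with eBayes and a trend. Tests were two-sided. Precision is set by having 3 arrays per group. The fit was tested on simulated data.

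The comparison and the gene lists were chosen with earlier results of these data known. Genes were named if among the 15 largest rises or falls that passed without overlap, the 4 members of a list with the smallest p, or the 5 largest differences of change each way among genes that also passed from 6 h to 12 h, with Myod1 and Myf5. The remaining genes that passed and further list members were added after their values were seen. Promoter windows, 1 per gene, came from RefSeq (GRCm38.p6) and matched 29 of the 37 genes that passed. Plots were drawn with matplotlib 3.10.9. Alternatives were median centring, values as deposited, other pseudocounts, a filter at a signal of 50, the mean of probe sets, no trend, fewer arrays, a replicate block and, chosen after seeing the data, array weights and all probe sets.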

Additional observations from a re-analysis of the deposited data

Results flagged for a closer look

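Named genes whose change from 6 h to 12 h differed between cell populations, by the test of the difference itself, were set apart. Each value is the change in empty retrovirus cells minus that in the other cells, on the log2 scale, with an adjusted p under 0.05. They are drawn from the 157 and 228 genes that passed. Ccn2 (mean signal 19.0) and 2210011K15Rik (7.75) were near the floor of the arrays at 6 h and Megf10 (14.6) at 12 h, so the sizes given for them rest on the pseudocount. Larger differences lay outside the rule for named genes, such as the MyoD target genes Myog (-4.14 against ER-MyoD wt and -2.96 against ER-MyoD RRR) and Chrng (-2.70 and -2.55), and Tm4sf1 (2.28 against ER-MyoD wt), chosen after their values were seen.

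Against ER-MyoD wt, the change in empty retrovirus cells was higher for Ccdc80 (1.38), Ccn2 (1.99), Cnn2 (1.18), Tnc (1.25) and Tpm1 (0.97). It was also higher for Ccl2 (1.06), Egr1 (1.57), Errfi1 (1.68), Nfkbia (1.01) and Nfkbiz (1.40), and Twist2 (0.87). It was lower for the lipid synthesis genes Fasn (-1.13) and Scd1 (-0.86) and the tRNA synthetase genes Gars (-0.68) and Wars (-0.86).

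Against ER-MyoD RRR, the change was higher for Ccdc80 (1.55), Ccn2 (1.92), Col6a1 (0.80), Col6a2 (0.99), Col6a3 (0.75) and Tnc (1.33) and for Cnn2 (0.96) and Tpm1 (1.0). It was also higher for Ccl2 (0.68), Egr1 (1.58), Errfi1 (1.66) and Twist2 (1.52), for the genes of dividing cells Iqgap3 (0.95) and Pif1 (1.25), and for 2210011K15Rik (1.96), Acat1 (0.58) and Gid8 (0.59). It was lower for Col3a1 (-0.71), Dnaja1 (-0.82), Igfbp5 (-1.81), Megf10 (-1.87) and Sgk1 (-1.02). ER-MyoD RRR 6 h replicate 2 had the largest 3' over 5' ratios of all 30 arrays (Gapdh 2.44, Actb 3.61). Without it 253 genes differed from ER-MyoD RRR, 94 higher and 159 lower, and 168 of the 228 were among them. Which of the genes listed above kept their call is not given here.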

How the results depend on the processing

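Against 37 genes from 6 h to 12 h, and 157 and 228 whose change differed from ER-MyoD wt and ER-MyoD RRR, median centring gave 0, 35 and 53, no trend 21, 93 and 110, and array weights, added after seeing the data, 77, 339 and 447. For the first count, values as deposited gave 23, the mean of probe sets 24 (16 higher and 8 lower, against 31 and 6), and only the 9 or 6 empty retrovirus arrays 0 and 0 (1444 and 1270 at an unadjusted p under 0.05). All 37 genes kept their direction in these fits. Leaving out 1 array gave 11 to 31, 80 to 139 and 105 to 253 genes. The first count moved by over 1.5 times without 6 h replicate 1 (11) or 2 (14) and without 12 h replicate 1 (22) or 2 (17). The others did so without empty retrovirus 6 h replicate 1 (85 and 105) or 2 (82 and 139), ER-MyoD wt 12 h replicate 1 (86) or 6 h replicates 2 (86) and 3 (80), and ER-MyoD RRR 12 h replicates 1 (109), 2 (143) and 3 (120). The replicate block gave 32, 150 and 214, with 27 of the 37 genes shared, and the numbers were not taken as pairs (correlations of same-numbered deviations at 6 h and 12 h 0.047, -0.064 and 0.064). Pseudocounts and a filter on low values kept each count within 1.5 times, and all probe sets gave 36 for the first. Signs turned for the fatty acid list's median (median centring -0.0062, array weights -0.0073, without 12 h replicate 2 -0.017, without 6 h replicate 2 -0.00025, over single arrays left out -0.017 to 0.063), the immediate early list's (without 12 h replicate 1 -0.024, without 6 h replicate 2 -0.025, up to 0.060 without 6 h replicate 3) and Myf5 (without 12 h replicate 2 -0.18, without 6 h replicate 2 -0.0032, up to 0.34 without 12 h replicate 1). The other 15 list medians kept their sign. The cause was not tested.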

Other observations

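Several lists showed no member past the threshold. Of core clock genes and their outputs 0 of 20 passed, with 0 at an unadjusted p under 0.05 by limma and a median of 0.059. None of 19 p53 target genes passed, and 0 had an unadjusted p under 0.05 (median -0.065). Of 25 unfolded protein response genes 0 passed and 6 were higher at an unadjusted p under 0.05 (against 4.86% of all genes). Among them Xbp1 was at 0.42 ± 0.16 (adjusted p = 0.42) and Calr at 0.27 ± 0.10 (0.42). Sarcomere genes had a median of 0.065 with 0 of 26 passing and 0 at an unadjusted p under 0.05, against medians of 0.45 and 0.11 in ER-MyoD wt and ER-MyoD RRR cells.

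Single genes of other lists had large differences that did not pass. Igf2, the fetal growth factor, differed by 1.41 ± 0.40 (adjusted p = 0.202) and Igfbp5, an IGF-binding protein gene, by 0.64 ± 0.16 (0.124). Among immediate early genes Egr1 was higher (0.74 ± 0.19, 0.13) and Fosl1 lower (-0.61 ± 0.19, 0.257) in every 12 h array. Sprr1a, a cornified envelope gene, differed by 0.81 ± 0.22 (0.157), with no overlap of the groups. H3f3b, a replacement histone gene, differed by -0.99 ± 0.35 at low signal (adjusted p = 0.35), from 84.9, 134 and 102 to 35.5, 54.0 and 45.8.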
